A study of Rattus norvegicus with 6 samples.

Results

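The genes described here are the chemokines, interleukins and tumour necrosis factor (TNF) family members of the rat heart, together with their receptors. They were taken by name from the deposited expression table: every row whose symbol begins with Ccl, Ccr, Cxcl or Cxcr and a digit, with Cx3c, Ackr, Tnfsf or Tnfrsf, or with Il and a digit, and the gene Tnf itself. The rule found 162 of 32883 rows. By the role of the protein, 80 encoded ligands, 76 receptors or receptor chains, 5 inhibitors or regulatory members of the IL-1 family and 1 an enzyme (Il4i1). RNA had been sequenced from myocardial tissue of diet-induced obesity-prone (OP) rats given high-fat food and of obesity-resistant (OR) rats given standard food, 3 rats per group and 1 library per rat. Both lines are substrains of Sprague Dawley rats, and the diets ran for 12 months from 4 weeks of age. The OP diet held 45% of its energy as lipids and 17% as sucrose, and the OR chow 5% as lipids and 2% as sucrose. Each group is 1 line on 1 diet, so line and diet cannot be told apart.

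Chemokines are small secreted proteins that guide leukocytes, stem cells and vascular cells along a gradient, and they act through G protein-coupled receptors. Atypical chemokine receptors (the Ackr genes) bind the same ligands and clear or store them. Interleukins act through paired receptor chains, several of which are shared between ligands: gp130 (Il6st) by IL-6 and IL-11, the common gamma chain (Il2rg) by IL-2, IL-4, IL-15 and IL-21. TNF family ligands bind trimeric receptors that lead to NF-kB activation, to cell death or to survival. In the heart these proteins come from endothelial cells, fibroblasts, resident macrophages and other leukocytes, and in part from the cardiomyocytes.

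The libraries held 11053909 to 12831577 reads assigned to genes in OP rats and 10838184 to 11873564 in OR rats, and the 162 genes took 0.148% to 0.191% of them. Values are given as counts per 1000000 reads (CPM). In a library 1 read stood for 0.0779 to 0.0923 CPM, and 3 reads, the upper limit that a count of 0 allows, for 0.234 to 0.277 CPM (counting error only). OP replicate 2 stood apart from the other libraries: the chi-square of its reads per gene (1 where libraries differ by counting error only) was 23.9 and 25.9 against the other OP libraries and 6.02 to 6.87 in all other pairs within a group. The summed cardiomyocyte markers (8 of 8 detected) reached 38622.5 to 40917 CPM in OP hearts and 39529 to 42683 CPM in OR hearts. The p-values set the difference between the groups against the spread between rats within a group, with variances drawn towards a trend over all genes tested. The study drew the 3 rats of each group at random. With 3 rats against 3, an exact permutation test of a single gene could not give a p below 0.1.

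Of the 162 genes, 20 had no read in any library and 65 had reads but stayed below the filter of 1 CPM in at least 3 libraries. The remaining 77 were tested by limma as part of 13445 genes, with Benjamini-Hochberg adjustment over all of them. At an adjusted p under 0.05 in limma, 3 of the 77 were called (3.90%, against 3.39% of all genes tested). Cxcl12 and Ccl21 were higher in OP hearts (1.49% of all genes were called higher) and Cxcl13 was lower (1.9% of all genes were called lower). Cxcl13 was also the only one of the 77 past both the adjusted p and an absolute log2 fold change of 1, against 1.16% of all genes. Cxcl1 passed the fold threshold alone (−1.05 ± 0.52 SE, limma adjusted p = 0.277). At an unadjusted p under 0.05 there were 17 genes, 9 higher and 8 lower (22.1%, against 22.3% of all genes). In 18 genes (23.4%, against 28.1% of all genes) the OP and OR values did not overlap. OP hearts lay above in 6 of them (7.79%, against 10.4% of all genes) and below in 12 (15.6%, against 17.7%). The median log2 fold change of the 77 was −0.04, beside 0.00 for all genes, and 35 of the 77 lay above 0 (50.2% of all genes did). Cytokine and receptor genes therefore differed between the groups about as often as other genes did, by each of these counts.

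**Figure D1:**
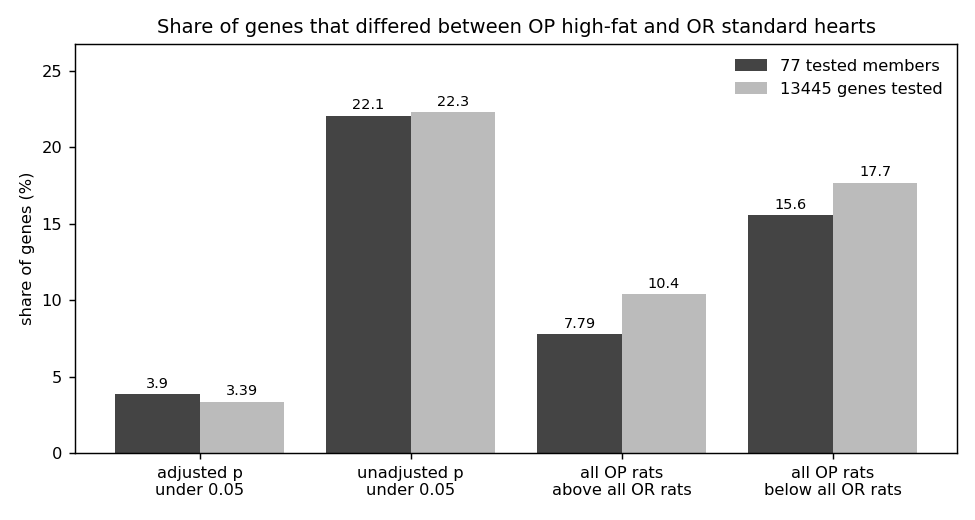
Share of genes, in percent, that passed each criterion between OP high-fat and OR standard hearts, for the 77 tested chemokine, interleukin and TNF family genes (dark bars) and for all 13445 genes tested (light bars). The shares of the 77 genes lie close to those of all genes, for example 3.90% against 3.39% at an adjusted p under 0.05.

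All 3 called genes encode chemokines, and no receptor was called. Of 44 tested receptor genes 0 passed the adjusted p in limma (3.39% of all genes tested did). Among the same 44, 6 had an unadjusted p under 0.05 (13.6%, against 22.3% of all genes). Of 31 tested ligands 3 passed (9.68%), and 11 had an unadjusted p under 0.05 (35.5%). Voom on the recovered reads called the same 3 genes. The difference between ligands and receptors was not tested. The sequence upstream of the start site is shown for these 3 genes because they carry the calls. The 250 bases before the annotated start (RefSeq, GRCr8) are printed 5′ to 3′ on the strand of the gene, with matches to the searched motifs in capitals.
Cxcl12, chr4:152060531-152060780, plus strand: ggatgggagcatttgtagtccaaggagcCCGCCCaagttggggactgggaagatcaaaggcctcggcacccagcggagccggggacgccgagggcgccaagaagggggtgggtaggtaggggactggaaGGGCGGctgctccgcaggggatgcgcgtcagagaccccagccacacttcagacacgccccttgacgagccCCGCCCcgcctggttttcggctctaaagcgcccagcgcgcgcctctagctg
Cxcl13, chr14:13917921-13918170, minus strand: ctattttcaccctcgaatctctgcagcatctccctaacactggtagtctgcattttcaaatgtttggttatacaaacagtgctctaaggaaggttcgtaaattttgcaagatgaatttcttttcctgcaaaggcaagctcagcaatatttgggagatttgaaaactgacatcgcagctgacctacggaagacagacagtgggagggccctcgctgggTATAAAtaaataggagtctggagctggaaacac
Ccl21, chr5:61777516-61777765, minus strand: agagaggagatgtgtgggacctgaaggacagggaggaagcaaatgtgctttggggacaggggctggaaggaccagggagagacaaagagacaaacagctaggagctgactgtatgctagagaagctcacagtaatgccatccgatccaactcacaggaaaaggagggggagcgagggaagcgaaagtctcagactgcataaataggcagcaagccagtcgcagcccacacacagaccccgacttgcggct
The motifs searched were TATAAA on the strand of the gene, and on both strands GGGCGG (a GC box), GGGANTTTC (the core of an NF-kB site), TTCNNNGAA (a STAT site) and GAAANNGAA (the core of an interferon-stimulated response element). None of these motifs overlapped another in the printed sequences. The search covered 300 bases, from 250 before to 50 after the start. Cxcl12 held 3 GC boxes, a motif found in 33.1% of 33469 promoters of that length, and its window was 66.7% G or C, more than 86.8% of the promoters. Cxcl13 held a TATAAA, which begins 33 bases before the start and occurs in 8.80% of the promoters, and its window was 45.3% G or C. Ccl21 held none of the 5 motifs, and its window was 54.3% G or C, beside a median of 51.7%. The letters searched for NF-kB (1.15% of promoters), STAT (8.87%) and the interferon element (9.71%) were not in any of the 3 windows. Of the 162 genes 125 had a promoter in the RefSeq table.

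Cxcl12 encodes the chemokine also called SDF-1, which holds stem cells and lymphocytes in their niches and takes part in vessel growth. It stood at 434.0, 372.2 and 504.3 CPM in the OP hearts, against 232.0, 280.6 and 235.9 CPM in the OR hearts. Every OP heart lay above every OR heart, and the lowest OP value was that of replicate 2. The means were 437 ± 66.1 CPM in OP hearts and 249 ± 26.98 CPM in OR hearts (SD, n = 3 each), a log2 fold change of 0.85 (± 0.11 SE, limma adjusted p = 0.0108). The direction held in all 15 alternative analyses, and the call was lost without OR replicate 1 (limma adjusted p = 0.065) or OR replicate 3 (0.064). Cxcl12 alone took up more reads than any other of the 162 genes, and it moved their total: the sum over all 162 was 1689 to 1914 CPM in OP hearts and 1480.15 to 1751 CPM in OR hearts, and without Cxcl12 it was 1316 to 1409 CPM in OP hearts and 1244 to 1519 CPM in OR hearts.

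CXCL12 signals through CXCR4 and is removed by the atypical receptor ACKR3. The receptor gene Cxcr4 had 20.95, 13.85 and 16.55 CPM in OP hearts, against 15.35, 11.4 and 11.7 CPM in OR hearts. The groups overlapped in this gene, with OP replicate 2 between the OR rats (log2 fold change 0.45 ± 0.17 SE, limma adjusted p = 0.176). Ackr3 went the other way, with 129.7, 87.85 and 126.1 CPM in OP hearts and 166.75, 143.7 and 143.2 CPM in OR hearts. Here every OP heart lay below every OR heart, but the difference did not pass the adjusted p (−0.37 ± 0.13 SE, limma adjusted p = 0.162). In tissue RNA of this kind, fewer cells of a type and less RNA per cell cannot be told apart. The markers of endothelial cells, which express Cxcl12 and Ackr3 in the heart, summed to 1190.25 to 1417 CPM in OP hearts and 939.6 to 1159 CPM in OR hearts, with a higher OP mean in 5 of 7 markers. Of these 7 only Vwf did not overlap between the groups (299.6, 480.75 and 354.85 CPM in OP hearts and 291.3, 254.05 and 193.35 CPM in OR hearts). Fibroblast markers overlapped (1589 to 2303 CPM in OP hearts and 1689 to 1902 CPM in OR hearts, a higher OP mean in 1 of 7). No marker of either list was at 0, and their part in the result was not tested.

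CCL21 and CCL19 draw dendritic cells and T cells into lymph vessels and lymph nodes through the receptor CCR7. Ccl21 stood at 78.4, 80.35 and 75.8 CPM in OP hearts, against 56.6, 40.95 and 33.1 CPM in OR hearts. The 3 OP values lay close together and above a wider range of OR values (means 78.2 ± 2.28 CPM in OP hearts and 43.6 ± 12.0 CPM in OR hearts, SD, n = 3 each). The log2 fold change was 0.92 (± 0.17 SE, limma adjusted p = 0.0316). Leaving out OP replicate 1 (limma adjusted p = 0.082), OP replicate 3 (0.060), OR replicate 2 (0.116) or OR replicate 3 (0.0928) ended the call, while the log2 fold change stayed between 0.75 and 1.12 over all 15 alternatives.

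Ccl19 had 5.95, 8.15 and 4.25 CPM in OP hearts and 3.9, 3.9 and 3.1 CPM in OR hearts. OP hearts were above here too, by a log2 fold change of 0.73 that did not pass the adjusted p (± 0.25 SE, limma adjusted p = 0.149). Ccl19 and Ccl21 stand next to Il11ra1 and Ccl27 on chromosome 5 in the GRCr8 annotation, with an uncharacterised gene between Ccl19 and Ccl21. Ccl27 overlaps Il11ra1. Those neighbours had log2 fold changes of −0.04 (Il11ra1) and −0.09 (Ccl27). The receptor gene Ccr7 was below the filter, with 5, 10 and 6 reads in OP libraries and 7, 8 and 5 reads in OR libraries. The scavenging receptor gene Ackr4 had 10.3, 10.5 and 11.1 CPM in OP hearts, against 10.35, 8.7 and 5.5 CPM in OR hearts (0.46 ± 0.21 SE, limma adjusted p = 0.244). The groups touched, since OR replicate 1 lay just above the lowest OP value. Lymphatic endothelial markers, whose cells make CCL21, summed to 131 to 159 CPM in OP hearts and 151 to 152 CPM in OR hearts (6 of 6 tested, 4 with a higher OP mean). These sums overlapped through Prox1, which had 57.85, 27.7 and 50.2 CPM in OP hearts and 56.6, 62.5 and 73.9 CPM in OR hearts. Without Prox1, left out after its values were seen, the sums were 101.3 to 104.65 CPM in OP hearts and 78.1 to 94.1 CPM in OR hearts. Reln and Flt4 lay above in all OP hearts (0.78 ± 0.21 SE and 0.39 ± 0.11 SE on the log2 scale) and did not pass the adjusted p. Mmrn1 (0.30 ± 0.13 SE), Pdpn (0.17 ± 0.18 SE) and Lyve1 (−0.05 ± 0.10 SE) overlapped between the groups. No marker of the list was at 0, and their part in Ccl21 was not tested.

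**Figure D2:**
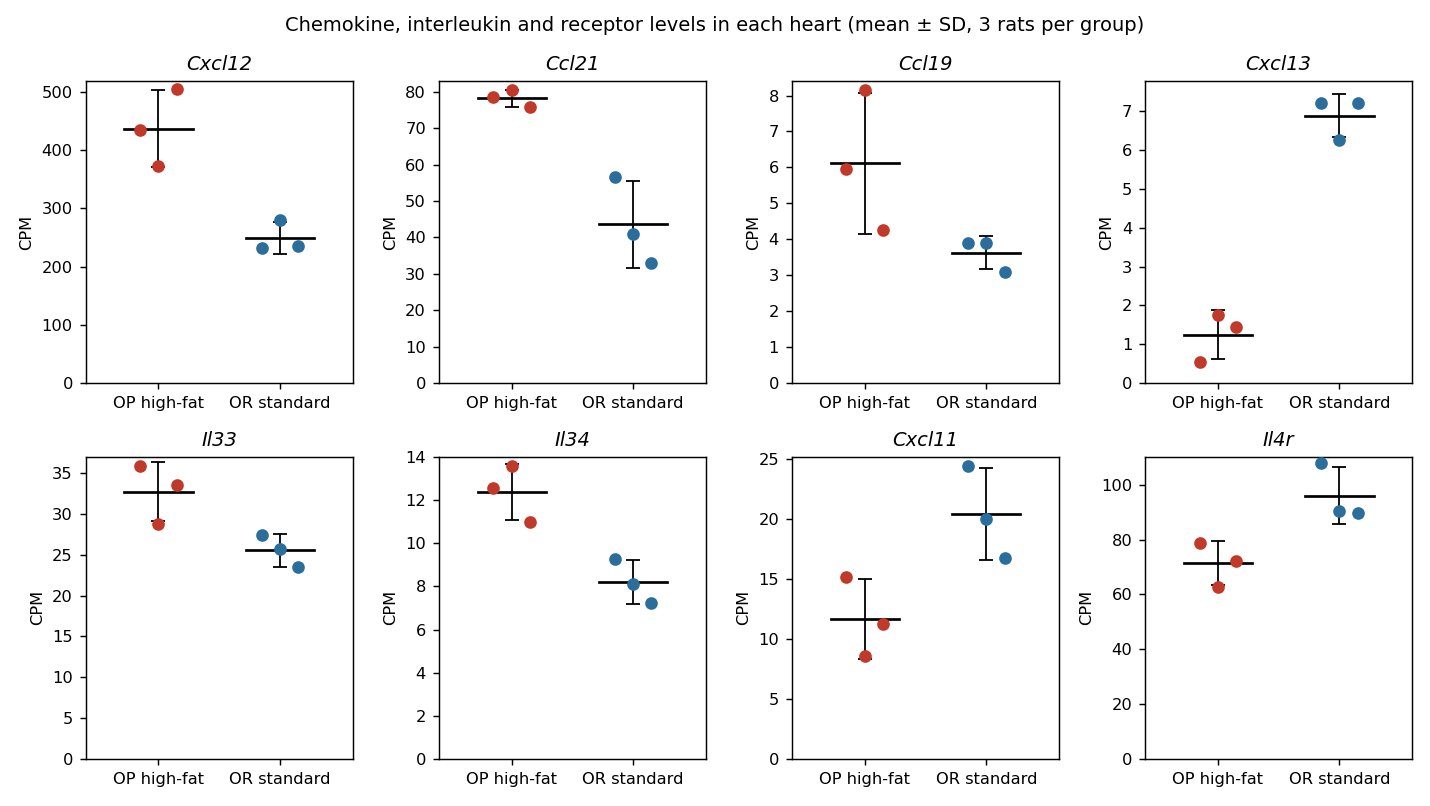
CPM of 8 genes in each OP high-fat heart (red, left) and each OR standard heart (blue, right), with the mean as a line and the SD as a bar (3 rats per group). Every panel shows groups that do not overlap: OP hearts lie above OR hearts for Cxcl12, Ccl21, Ccl19, Il33 and Il34 and below them for Cxcl13, Cxcl11 and Il4r, and of the 8 only Cxcl12, Ccl21 and Cxcl13 passed the adjusted p.

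CXCL13 attracts B cells into the follicles of lymphoid tissue through the receptor CXCR5. Cxcl13 stood at 0.55, 1.75 and 1.45 CPM in OP hearts, against 7.2, 6.25 and 7.2 CPM in OR hearts. These values rest on 6, 19 and 18 reads in the OP libraries and 78, 74 and 82 reads in the OR libraries, and the groups lay far apart. The log2 fold change was −2.35 (± 0.35 SE, limma adjusted p = 0.0150), the largest of the 77 in either direction. The call was lost without OR replicate 1 (limma adjusted p = 0.0842), OR replicate 2 (0.0666) or OR replicate 3 (0.0804), with the log2 fold change between −2.31 and −2.42 in those fits. Its receptor gene Cxcr5 was below the filter, at 8, 6 and 11 reads in OP libraries and 5, 12 and 6 reads in OR libraries. Of 10 markers of B cells and plasma cells 7 were also below the filter (among them Ms4a1, Cd79a, Cd79b, Pax5, Blk and Fcrla). The sum over the 10 was 6.3 to 10.5 CPM in OP hearts and 4.85 to 5.5 CPM in OR hearts, in the opposite direction to Cxcl13. The part of these cells in the result was not tested.

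The other CXC chemokines lay on both sides of 0. In this class, with CX3CL1, 10 of 13 genes were tested, 1 was called higher and 1 lower, and the median log2 fold change was −0.30. CXCL9, CXCL10 and CXCL11 share the receptor CXCR3 on T cells and natural killer cells and are induced by interferons. Cxcl11 had 15.2, 8.55 and 11.25 CPM in OP hearts, against 24.4, 20.05 and 16.75 CPM in OR hearts. The groups did not overlap, and the difference did not pass the adjusted p (−0.77 ± 0.21 SE, limma adjusted p = 0.0858). Cxcl11 overlaps Art3 in the GRCr8 annotation, and whether the counting used strand is stated in no source used here. Cxcl10 (−0.63 ± 0.36 SE), Cxcl9 (−0.09 ± 0.36 SE) and Cxcr3 (0.03 ± 0.37 SE) overlapped between the groups. The sums of T and natural killer cell markers were 32.7 to 50.6 CPM in OP hearts and 40.5 to 43.8 CPM in OR hearts (9 of 12 tested).

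A pair of transmembrane chemokines had the most reads of this class after Cxcl12. Cxcl16, which also takes up oxidised lipoprotein on macrophages, had 29.6, 42.0 and 42.95 CPM in OP hearts and 33.15, 30.85 and 22.45 CPM in OR hearts (log2 fold change 0.45 ± 0.19 SE, limma adjusted p = 0.206). OP replicate 1 lay below 2 of the OR rats. Cx3cl1, or fractalkine, had 66.05, 61.55 and 91.45 CPM in OP hearts and 80.65, 74.05 and 63.1 CPM in OR hearts (0.04 ± 0.14 SE). Their receptor genes were low: Cxcr6 had 1.2 to 2.05 CPM in OP hearts and 1.35 to 1.85 CPM in OR hearts, and Cx3cr1 was below the filter.

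Among CC chemokines 10 of 20 genes were tested, with Ccl21 as the only call and a median log2 fold change of 0.03. Ccl5, the T cell chemokine RANTES, had 12.7, 10 and 15.15 CPM in OP hearts, against 18.75, 18.4 and 16.25 CPM in OR hearts. All OP values were below all OR values (−0.46 ± 0.15 SE, limma adjusted p = 0.124). Ackr2, which clears inflammatory CC chemokines, had 4.55, 5.7 and 4.85 CPM in OP hearts and 8.35, 6.35 and 6.15 CPM in OR hearts (−0.40 ± 0.18 SE, limma adjusted p = 0.234). Ccl2, the monocyte chemokine MCP-1, did not separate the groups, with 3.65, 10.5 and 8.15 CPM in OP hearts and 8.8, 7.1 and 6.3 CPM in OR hearts (−0.06 ± 0.35 SE). OP rats held both the lowest and the highest value. Ccl6, a myeloid chemokine of rodents, spread in the same way (11.85, 6.25 and 14.5 CPM in OP hearts and 8.8, 9.95 and 9.0 CPM in OR hearts). Macrophage markers summed to 281 to 396 CPM in OP hearts and 239.8 to 332 CPM in OR hearts (12 of 12 tested), and these ranges overlap.

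As a class the chemokine receptors summed to 132 to 180.4 CPM in OP hearts and 181 to 215 CPM in OR hearts, most of it Ackr3. Of 20 genes 9 were tested and none was called (3.39% of all genes were). Cxcr4 and Ackr3 had an unadjusted p under 0.05 (22.2% of the 9, against 22.3% of all genes). Of the 9 tested receptors, Ackr2 and Ackr3 were the ones whose groups did not overlap (22.2%, against 28.1% of all genes).

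**Figure D3:**
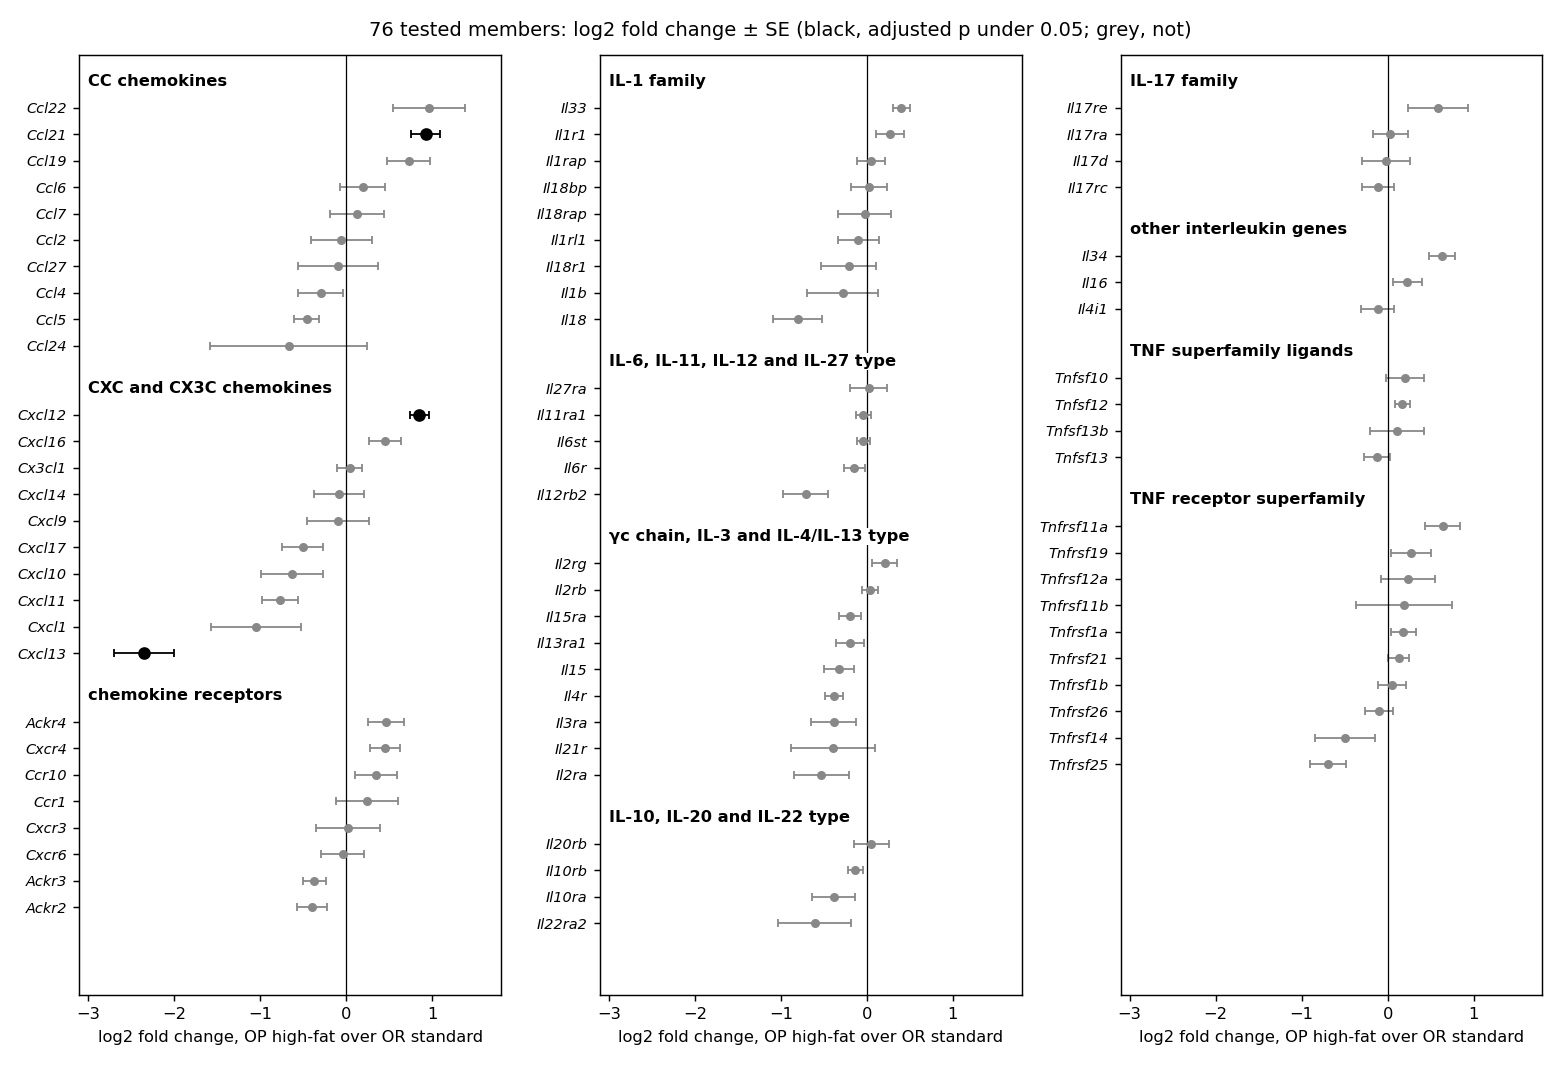
Log2 fold change of OP high-fat over OR standard hearts with its SE for 76 of the 77 tested genes, arranged by class (black, adjusted p under 0.05 in limma; grey, not past it). Cxcl12 (0.85) and Ccl21 (0.92) lie to the right, where Ccl22 (0.96), which was not called, lies furthest. Cxcl13 (−2.35) lies furthest to the left, followed by Cxcl1 (−1.05), which was not called. Most receptor genes lie within the range of −0.40 to 0.46 spanned by the chemokine receptors.

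In the IL-1 family 9 of 20 genes were tested and none was called, with a median log2 fold change of −0.03. IL-33 is an alarm signal held in the nucleus of endothelial and stromal cells and sensed through ST2. Il33 had 35.9, 28.8 and 33.55 CPM in OP hearts, against 27.45, 25.65 and 23.5 CPM in OR hearts. The groups did not overlap, with OP replicate 2 closest to the OR rats (0.40 ± 0.10 SE, limma adjusted p = 0.0748). Without OP replicate 2 it passed (0.47 ± 0.10 SE, limma adjusted p = 0.035). Il33 overlaps another annotated gene, whose reads cannot be told apart from those of Il33 if the counting ignored strand. The endothelial marker sums given with Cxcl12 were higher in OP hearts as well, although Vwf was the only marker of that list without overlap. The part of these cells in Il33 was not tested. Il1rl1, which encodes ST2, had 1.4, 1.45 and 1.8 CPM in OP hearts and 2.15, 1.35 and 1.75 CPM in OR hearts. These values overlapped, and the log2 fold change was −0.10 (± 0.24 SE, limma adjusted p = 0.841). A gene count does not separate the membrane-bound form of ST2 from the soluble form that the study measured in plasma. Il1rap, the chain that ST2 shares with the IL-1 receptor, had 7.3, 10.45 and 8.75 CPM in OP hearts and 9.15, 8.6 and 8.55 CPM in OR hearts (0.04 ± 0.16 SE).

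Il18, a product of inflammasome-active cells, had 0.9, 1.2 and 0.65 CPM in OP hearts and 2.15, 1.7 and 1.5 CPM in OR hearts. These are 10, 13 and 8 reads in OP libraries and 23, 20 and 17 reads in OR libraries (−0.80 ± 0.28 SE, limma adjusted p = 0.153), and Il18 overlaps 2 other genes in the annotation. Its neutraliser Il18bp did not differ beyond its spread (13.5, 21.65 and 19.75 CPM in OP hearts and 22.65, 16.95 and 15.8 CPM in OR hearts). Il1r1, the signalling receptor of IL-1, had 34.7, 45.45 and 37.45 CPM in OP hearts and 41.45, 31.0 and 28.75 CPM in OR hearts (0.27 ± 0.16 SE). Its ligand Il1b had 1.75, 2.2 and 2.05 CPM in OP hearts and 5.55, 1.8 and 1.6 CPM in OR hearts, so the high value belongs to OR replicate 1 alone.

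The other classical inflammatory cytokines were scarcely detected in either group. Tnf had no read in any of the 6 libraries. By counting error only, that allows at most 0.234 to 0.277 CPM per library, provided that the counting could assign reads to this gene. Il6 had 0, 2 and 0 reads in OP libraries and 20, 0 and 5 reads in OR libraries. Il10 had 1, 0 and 0 reads in OP libraries and 0, 0 and 3 reads in OR libraries. OR replicate 1, which had most of the Il6 reads, also had the highest Il1b value, the highest Cxcl1 value (95 reads, against 22 and 36 in the other OR libraries and 29, 10 and 24 in OP libraries) and the highest Cxcl2 value (27 reads, against 2 in each other OR library and 7, 2 and 3 in OP libraries). Cxcl1 and Cxcl2 attract neutrophils. Neutrophil markers summed to 7.5, 11.9 and 9.3 CPM in OP hearts and 5.05, 4.1 and 3.45 CPM in OR hearts. OR replicate 1 thus had the highest sum of the OR hearts, below all OP hearts. Of the 8 markers 5 were below the filter (Mpo, Elane, Camp, Ngp and Retnlg). S100a9 alone had 3.2, 6.7 and 4.45 CPM in OP hearts and 2.4, 1.35 and 1.15 CPM in OR hearts. The part of neutrophils in the chemokine values was not tested. For none of these cytokines did the data hold a difference that all rats shared.

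**Figure D4:**
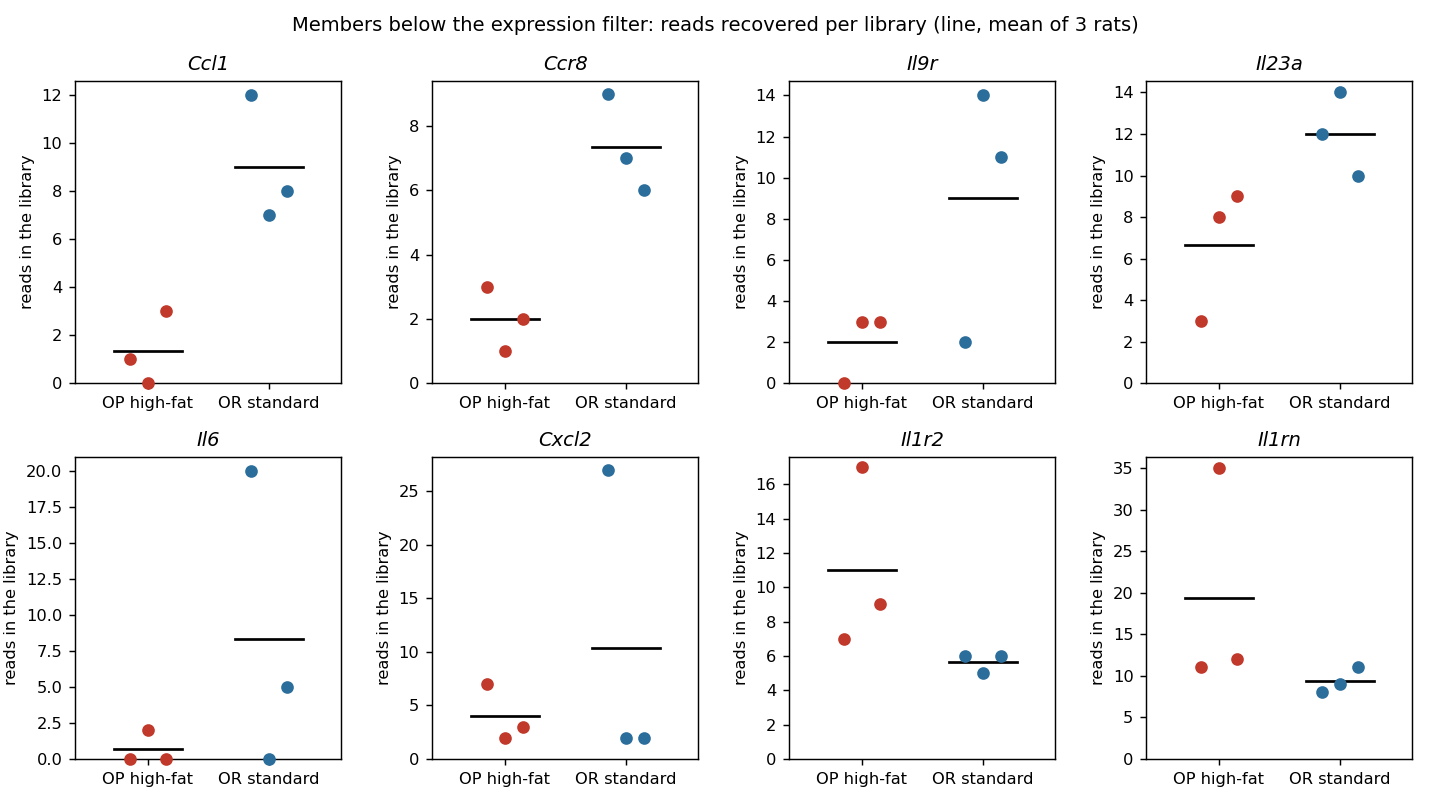
Reads recovered per library for 8 genes below the expression filter, chosen after their values were seen, in OP high-fat hearts (red, left) and OR standard hearts (blue, right), with the mean as a line. Ccl1 (0 to 3 reads in OP and 7 to 12 in OR libraries), Ccr8 (1 to 3 in OP and 6 to 9 in OR libraries) and Il23a (3 to 9 in OP and 10 to 14 in OR libraries) do not overlap between the groups, while the Il6 and Cxcl2 means in OR rats come mostly from OR replicate 1.

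Below the filter 8 of 65 genes did not overlap between the groups (12.3%, against 7.29% of 7174 genes with reads below the filter, many of which have fewer reads). OP hearts were below in 6 (Ccl1, Ccl20, Ccr8, Il17rd, Il22ra1 and Il23a) and above in 2 (Ccl12 and Il1r2). Among them are a ligand and its receptor. Ccl1 had 1, 0 and 3 reads in OP libraries and 12, 7 and 8 reads in OR libraries. Ccr8, the CCL1 receptor of regulatory T cells and Th2 cells, had 3, 1 and 2 reads in OP libraries and 9, 7 and 6 reads in OR libraries. No OP library held more than the 3 reads of the floor for either gene. These genes were named after their values were seen, and with no filter on low values limma called none of the 65. Il23a, a subunit of IL-23, had 3, 8 and 9 reads in OP libraries and 12, 14 and 10 reads in OR libraries. Il1r2, the decoy receptor that binds IL-1 without signalling, had 7, 17 and 9 reads in OP libraries and 6, 5 and 6 reads in OR libraries. The 20 genes with no read included Il3, Il4, Il9, Il17a, Il17f, Il25, Tnfsf11, Ccr4 and Ccr9.

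IL-34 is a ligand of the macrophage receptor CSF1R and differs in sequence from the other ligand, CSF1. Il34 had 12.55, 13.6 and 11 CPM in OP hearts, against 9.25, 8.1 and 7.25 CPM in OR hearts. The groups did not overlap, and the difference stayed just short of the adjusted threshold (0.63 ± 0.15 SE, limma adjusted p = 0.0616). Il34 also overlaps 2 other annotated genes. Csf1r, which the name rule does not take, had 30.05, 38.65 and 50 CPM in OP hearts and 33.15, 38.85 and 30.65 CPM in OR hearts (0.23 ± 0.18 SE). Il16, a chemoattractant for CD4+ cells, had 23.25, 13.85 and 18.9 CPM in OP hearts and 17.45, 15.5 and 15.4 CPM in OR hearts.

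The class of the common gamma chain, with the ligands and receptors of IL-3, IL-4 and IL-13, gave no call in 9 tested of 21 genes. The log2 fold change was below 0 in 7 of the 9, with a median of −0.32. The median moved to −0.18 without OP replicate 1, −0.14 without OP replicate 2 and −0.03 with no filter on low values. The class sum was 144 to 168 CPM in OP hearts and 172 to 209 CPM in OR hearts. More of that sum came from Il4r than from any other gene. It encodes the receptor chain through which IL-4 and IL-13 turn macrophages towards repair functions. Il4r had 78.95, 62.9 and 72.35 CPM in OP hearts, against 108.0, 90.5 and 89.6 CPM in OR hearts (−0.38 ± 0.10 SE, limma adjusted p = 0.0851). All OP values were below all OR values. Il15, the only tested ligand of this class, had 4.3, 3.35 and 4.1 CPM in OP hearts and 6.1, 4.4 and 4.9 CPM in OR hearts (−0.32 ± 0.18 SE, limma adjusted p = 0.325). The common gamma chain gene Il2rg itself (0.21 ± 0.15 SE), Il2rb (0.03 ± 0.09 SE) and Il2ra (−0.53 ± 0.32 SE) overlapped between the groups. Il4 had no read and Il13 at most 1 read in a library.

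Among the IL-6 and IL-12 type genes 5 of 14 were tested, all of them receptor chains. Il6st, which encodes gp130, had 141.9, 140.7 and 156.1 CPM in OP hearts and 153.85, 163.75 and 148.4 CPM in OR hearts (−0.04 ± 0.07 SE). Il11ra1, the receptor chain of IL-11, a cytokine known for cardiac fibrosis, had 128.85, 107.95 and 108.2 CPM in OP hearts and 126.9, 122.15 and 116.4 CPM in OR hearts (−0.04 ± 0.09 SE). Il6r followed with 18.55, 13.85 and 15.55 CPM in OP hearts and 18.3, 19.05 and 17.3 CPM in OR hearts (−0.15 ± 0.12 SE). For these 3 receptor chains the log2 fold change was small beside the calls above, with an SE of 0.07 to 0.12. Il12rb2, a chain of the IL-12 receptor of Th1 cells, had 3.35, 1.85 and 4.0 CPM in OP hearts and 4.55, 5.65 and 5.1 CPM in OR hearts (−0.71 ± 0.26 SE, limma adjusted p = 0.162). Its groups did not overlap.

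In the IL-10 class 4 of 11 genes were tested, again only receptors, with a median of −0.26. Il10rb, the chain shared by IL-10 and IL-22, had 25.35, 25.15 and 27.6 CPM in OP hearts and 28.55, 31.1 and 29.15 CPM in OR hearts (−0.14 ± 0.09 SE, limma adjusted p = 0.395), without overlap. Il10ra (1.5 to 1.65 CPM in OP hearts and 1.55 to 2.65 CPM in OR hearts) and Il22ra2 (0.35 to 1.1 CPM in OP hearts and 0.65 to 1.6 CPM in OR hearts) overlapped. Il20rb lay at 1.95 to 2.5 CPM in OP hearts and 1.95 to 2.4 CPM in OR hearts. In the IL-17 class 4 of 11 genes were tested and the median was 0.00. Il17ra, the shared signalling receptor, had 16.75, 26.45 and 17.15 CPM in OP hearts and 23.1, 20.15 and 16.95 CPM in OR hearts. Il17rc (11.6 to 17.4 CPM in OP hearts and 13.45 to 17.05 CPM in OR hearts), Il17re (1.5 to 2.25 CPM in OP hearts and 0.8 to 2.2 CPM in OR hearts) and the ligand Il17d (2.35 to 3.8 CPM in OP hearts and 2.35 to 4.3 CPM in OR hearts) overlapped as well. Il4i1, an enzyme that breaks down phenylalanine and is induced by IL-4, had 1.85 to 2.15 CPM in OP hearts and 2.05 to 2.55 CPM in OR hearts.

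TNF family ligands gave no call in 4 tested of 12, with a median log2 fold change of 0.14 (−0.01 without OP replicate 2). Tnfsf10, the death ligand TRAIL, had 57.5, 41.35 and 86.2 CPM in OP hearts and 60, 54.6 and 45.5 CPM in OR hearts (0.20 ± 0.22 SE). OP rats held the lowest and the highest value. Tnfsf12, or TWEAK, had 39.55, 33.7 and 36.25 CPM in OP hearts and 34.7, 33.8 and 31.85 CPM in OR hearts (0.17 ± 0.09 SE, limma adjusted p = 0.290). Its receptor gene Tnfrsf12a (Fn14) had 31.25, 61.7 and 27.05 CPM in OP hearts and 38.2, 37.35 and 24.45 CPM in OR hearts, and OP replicate 2 alone lay above all other hearts. The same library stood alone for Tnfrsf11b, the decoy receptor osteoprotegerin (4.65, 25.45 and 6.35 CPM in OP hearts and 6.95, 10.3 and 7.9 CPM in OR hearts). Tnfsf13, or APRIL, had 6.1 to 7.7 CPM in OP hearts and 7.25 to 8.8 CPM in OR hearts.

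Of the TNF receptor genes 10 of 17 were tested, with no call and a median of 0.16 (−0.01 without OP replicate 2). Tnfrsf11a, the receptor RANK, had 4.4, 5.55 and 6.9 CPM in OP hearts, against 4.1, 3.05 and 3.7 CPM in OR hearts (0.64 ± 0.21 SE, limma adjusted p = 0.128). Tnfrsf25, the receptor DR3 of T cells, had 1.55, 1.55 and 2.2 CPM in OP hearts, against 3.25, 3.25 and 2.65 CPM in OR hearts (−0.69 ± 0.21 SE, limma adjusted p = 0.114). In both genes the groups did not overlap, in opposite directions. Both TNF receptors overlapped: Tnfrsf1a had 46.7, 62.0 and 47.55 CPM in OP hearts and 51.25, 48.8 and 41.45 CPM in OR hearts, and Tnfrsf1b had 10.05, 12.5 and 11.5 CPM in OP hearts and 13.5, 9.55 and 11.1 CPM in OR hearts. Tnfrsf14, the receptor of LIGHT, had 0.95 to 1.65 CPM in OP hearts and 1.25 to 3.35 CPM in OR hearts.

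Downstream of these receptors, 3 lists outside the name rule were read in the same fit. Of 24 tested genes for JAK kinases, STAT factors, SOCS inhibitors and shared receptor chains, the median log2 fold change was −0.09. The phosphatase gene Ptpn11 and the inhibitor gene Socs4 of that list did not pass the adjusted p. Of 38 tested transducers of TNF and IL-1 receptors none was called (3.39% of all genes were). An unadjusted p under 0.05 was found in 6 of them (15.8%, against 22.3% of all genes). Ikbkb, which encodes the kinase IKK-beta of the NF-kB pathway, had 64.95, 116.75 and 75.8 CPM in OP hearts and 47.8, 49.65 and 40.7 CPM in OR hearts (0.90 ± 0.21 SE, limma adjusted p = 0.0616). Without OP replicate 2, which holds its highest value, it passed (0.63 ± 0.11 SE, limma adjusted p = 0.0138). Map3k14 and Chuk, kinases of the same pathway, had values below those of all OR hearts in every OP heart (for Map3k14, 9.45, 7.55 and 10.45 CPM in OP hearts and 13.2, 13.1 and 13.0 CPM in OR hearts), and did not pass. Of 19 tested cytokines and receptors with other names none was called, and 3 had an unadjusted p under 0.05 (15.8%, against 22.3% of all genes). The lowest adjusted p there was that of Eda, a TNF family ligand of skin appendages (2.25, 2.3 and 1.75 CPM in OP hearts and 2.9, 4.0 and 3.45 CPM in OR hearts, limma adjusted p = 0.145), followed by Ngfr and Eda2r.

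Marker sums of 2 further cell types did not overlap between the groups. Schwann cell markers summed to 61.4 to 110.2 CPM in OP hearts and 45.8 to 50.8 CPM in OR hearts (8 of 8 tested, 7 with a higher OP mean). Adipocyte markers summed to 550.2 to 577 CPM in OP hearts and 393 to 493 CPM in OR hearts, with the defining genes Adipoq, Plin1, Lep and Cidec below the filter. Nearly all of this sum was Fabp4 (539.2 to 562.5 CPM in OP hearts and 382.05 to 482.6 CPM in OR hearts), so it rests on 1 gene. The remaining tested marker, Cfd, overlapped between the groups (−0.15 ± 0.18 SE). Mast cell sums overlapped (36.2 to 58.9 CPM in OP hearts and 32.6 to 38.2 CPM in OR hearts), although 8 of 9 markers had a higher OP mean. The tryptase genes Tpsb2 (1.96 ± 0.27 SE, limma adjusted p = 0.0115) and Tpsab1 (1.60 ± 0.23 SE, limma adjusted p = 0.0123) were called higher in OP hearts, while Kit lay below in all OP hearts (10.9 to 18.1 CPM in OP hearts and 21.15 to 22.65 CPM in OR hearts). Mesothelial sums overlapped (41.6 to 58.2 CPM in OP hearts and 40.5 to 51.6 CPM in OR hearts). The part of these cells in the values above was not tested.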

How the data were processed

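Myocardial RNA of 6 rats was sequenced as paired-end TruSeq libraries. Trimming (Trimmomatic), mapping to Rnor_6.0 (STAR) and counting per gene (HTSeq) were done by the authors. The deposited values are a score: read numbers per gene that the authors brought to a total of 20000000 in each library, rounding up. Reads per library were recovered from the steps between values, and 99.7% to 99.9% of the values equalled a whole number of reads exactly. CPM is the deposited score divided by 20.

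Scores divided by TMM factors of the recovered reads, plus a pseudocount of 4 (0.2 CPM), were taken as log2 values and fitted by group with limma 3.58.1 (R 4.3.3, mean-variance trend), with Benjamini-Hochberg adjustment over the 13445 genes that reached 1 CPM in 3 or more libraries. Fold changes are on this scale and understate changes of low genes. The limma fit was run on simulated libraries with a fixed dispersion. The recovery of reads and the TMM scaling were not part of that simulation. Tables and figures used Python 3.11.15, pandas 2.3.3, NumPy 2.4.6 and Matplotlib 3.10.9.

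The 162 genes, their classes, the lists and the ligand-receptor pairs were chosen with earlier results of these data known. Genes named are those called, those without overlap and changed over 1.5-fold, and per class the 3 with the smallest p and the 3 with the highest mean CPM. Added to these were Il1rl1, Il33, Il1rap, Cxcl13, Cxcr5, Tnf, Il1b, Il6, Ccl2 and Il10, and the 3 genes with the smallest adjusted p of each list outside the rule. All other genes named, such as pair partners and low genes, were chosen after their values were seen. Alternatives were median-of-ratios scaling, no rescaling, voom, pseudocounts of 1 and 20, all genes with a read, only genes with 10 or more reads in every library, a fit with robust variances, a block for replicate number, and each library left out. In the GRCr8 annotation Ackr4, Ccl6, Cxcl16, Cxcr5, Il16, Il1rap, Il22ra2, Il2rb, Il4i1, Il6r, Il6st, Tnfrsf1b, Tnfsf10, Tnfsf12 and Tnfsf13 also overlap another gene, and without a known strand setting their reads may include those of that gene. Levels were not compared between genes, since transcript lengths were not used here. Some single genes are not reported here. Plasma, histology and RT-qPCR data were not analysed here.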

Additional observations from a re-analysis of the deposited data

How the results depend on the processing

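Of 3 genes called among the 77, 2 to 3 were called in the 9 alternatives that kept all libraries, and 0 to 4 with a library left out. The count higher in OP hearts was 2 in each of the 9 and 0 to 3 with a library left out. The count lower in OP hearts was 0 with at least 10 reads in every library, where Cxcl13 is not among the genes tested, and 0 to 1 with a library left out. Without OR replicate 3 none of the 77 passed in limma, and 13 had an unadjusted p under 0.05. The median log2 fold change of the tested genes was −0.09 to −0.03 with all libraries and −0.10 to 0.01 with a library left out. Over 881 values of 59 named genes, 13 lost and 3 gained a call. The sign of the log2 fold change turned in 30 values of 16 genes (Ccl2, Ccl6, Cx3cl1, Il11ra1, Il17d, Il17ra, Il17rc, Il18bp, Il1b, Il1rap, Il1rl1, Il20rb, Il2rb, Tnfrsf12a, Tnfrsf1b and Tnfsf10), none of which was called in any of these fits. Of 165 class medians 11 moved by more than their spread, 4 of them in the common gamma chain class. The others were 0.36 for CC chemokines (without OP replicate 1), −0.09 (at least 10 reads in every library) and −0.48 (without OR replicate 3) for CXC chemokines, 0.37 for chemokine receptors (without OR replicate 2), −0.01 for TNF family ligands and for TNF receptors (without OP replicate 2) and −0.10 for TNF receptors (no filter).

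Among all genes, 456 were called, against 72 (without OR replicate 1), 94 (OR replicate 2), 76 (OR replicate 3), 179 (OP replicate 1), 785 (OP replicate 2) and 267 (OP replicate 3) with a library left out. With no rescaling 33.1% of the calls were higher in OP hearts, against 44.1%. The labels number the replicates in both groups. Deviations of same-numbered libraries correlated by 0.06, 0.07 and 0.13, and those of differently numbered libraries by −0.17 to 0.08. OP replicate 1 correlated better with OR replicate 3 (0.08) than with OR replicate 1. With 3 libraries per group these correlations cannot decide whether the numbers pair the rats. With the replicate number as a block, the same 3 of the 77 genes were called, 2 higher and 1 lower, and 267 of all genes. Ikbkb then gained a call (adjusted p = 0.0494 from limma).

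Depth limits the genes under about 10 reads, for which a difference was not detectable unless it was large.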
